A study of Mus musculus with 10 samples.

Results

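The genes that mark mast cells and basophils were followed in haematopoietic progenitors of Dnmt3a knockout and control mice. The set was given by name and holds 10 genes (Hdc, Cpa3, Mcpt8, Prss34, Cma1, Fcer1a, Ms4a2, Il1rl1, Il4 and Gata2) of the 38086 gene IDs present in both count tables. All 10 were listed in both tables.

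Mast cells and basophils are granulocytes that arm themselves with immunoglobulin E. The high-affinity receptor for it, FcεRI, consists of an alpha chain that binds IgE (Fcer1a), a beta chain (Ms4a2) and a shared signalling gamma chain, and its cross-linking releases granules that hold histamine, made by histidine decarboxylase (Hdc), and proteases. Both lineages arise in the bone marrow from myeloid progenitors through a step that needs GATA2, and basophil precursors are found in the neighbourhood of granulocyte-macrophage progenitors.

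RNA was sequenced from 2 populations sorted from the bone marrow of C57BL/6 mice aged 12 months. GMP (granulocyte-macrophage progenitors) were lineage-negative, Sca1−, cKit+, CD34+ and FcgR+, and LSK cells, which include the stem cells, were lineage-negative, Sca1+ and cKit+. KO mice carried floxed Dnmt3a alleles, encoding a de novo DNA methyltransferase, and the Mx1-Cre transgene, and CTRL mice had the same floxed alleles but no Cre. The Mx1 promoter responds to interferon and acts in blood-forming and other cells, and mice of all groups received 5 injections of poly(I:C), an interferon inducer. There were 3 KO and 2 CTRL libraries per population, called by genotype and the number of their title. Values by library are given below in the order KO-178, KO-179, KO-352, then CTRL-346, CTRL-350 for GMP, and KO-1327, KO-1333, KO-1334, then CTRL-1326, CTRL-1330 for LSK. Deletion of Dnmt3a and presence of Cre cannot be told apart in any comparison, and DNA methylation was not analysed here.

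Gene counts totalled 93850256 to 122658636 reads in GMP libraries, against 29533371 to 30437981 in LSK libraries. Dnmt3a itself was at 44.7, 57.4 and 17.7 CPM in KO GMP, against 127 and 99.0 CPM in CTRL GMP, and at 63.9, 57.8 and 65.5 CPM in KO LSK, against 169 and 168 CPM in CTRL LSK (CPM, counts scaled to equal library size). Every KO library was below both CTRL libraries of its population, with an edgeR adjusted p of 0.300 in GMP and 1.06e-04 in LSK. Mpo, a granule enzyme of GMP, averaged 8699 ± 1762 CPM in KO GMP and 11514 ± 2233 CPM in CTRL GMP (SD, n = 3 and 2). In LSK libraries Mpo averaged 1305 ± 128 CPM in KO and 1454 ± 69.1 CPM in CTRL. Reads outside annotated genes made 15.5%, 16.1% and 10.3% of the reads listed for KO GMP, against 8.50% and 14.2% for CTRL GMP. By Xist and Y-linked reads all 5 GMP libraries were male, whereas LSK KO-1333, KO-1334 and CTRL-1330 were female and KO-1327 and CTRL-1326 male.

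The promoters of these genes differed in CG content, which is shown because DNMT3A methylates the cytosine of CG dinucleotides. Each window below holds the 250 bases before the RefSeq transcription start (GRCm38.p6), 5′ to 3′ on the strand of the gene, with capitals marking every CG and every match to GATAA or its reverse complement TTATC, the core letters bound by GATA factors. Hdc is shown as the member called in GMP, Cma1 as the member with the largest fold between GMP groups, Ms4a2 as the window with the most GATAA matches, and Gata2 as a CG-rich contrast. The windows lie at chr2:126618679-126618928 (minus strand) for Hdc, chr14:55944676-55944925 (minus strand) for Cma1, chr19:11623720-11623969 (minus strand) for Ms4a2 and chr6:88193641-88193890 (plus strand) for the upstream start of Gata2.
Hdc: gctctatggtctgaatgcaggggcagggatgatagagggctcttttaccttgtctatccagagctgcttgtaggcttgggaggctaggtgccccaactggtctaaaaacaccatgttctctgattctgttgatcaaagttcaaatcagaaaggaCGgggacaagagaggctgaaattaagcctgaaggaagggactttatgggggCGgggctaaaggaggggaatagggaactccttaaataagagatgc
Cma1: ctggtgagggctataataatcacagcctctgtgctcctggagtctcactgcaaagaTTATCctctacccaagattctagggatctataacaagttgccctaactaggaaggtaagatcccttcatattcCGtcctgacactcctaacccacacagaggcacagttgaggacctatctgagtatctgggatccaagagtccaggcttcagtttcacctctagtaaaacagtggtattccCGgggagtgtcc
Ms4a2: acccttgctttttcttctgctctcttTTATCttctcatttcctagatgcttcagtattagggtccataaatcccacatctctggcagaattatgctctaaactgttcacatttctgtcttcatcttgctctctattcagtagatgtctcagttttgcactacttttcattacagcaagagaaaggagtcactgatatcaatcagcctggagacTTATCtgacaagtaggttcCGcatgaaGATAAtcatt
Gata2: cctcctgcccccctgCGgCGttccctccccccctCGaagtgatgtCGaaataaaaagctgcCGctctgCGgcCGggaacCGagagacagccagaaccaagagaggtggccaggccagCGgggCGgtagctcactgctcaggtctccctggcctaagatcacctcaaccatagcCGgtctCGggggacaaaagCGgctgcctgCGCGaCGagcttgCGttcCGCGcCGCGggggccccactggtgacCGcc
The Hdc window has 2 CG dinucleotides, Cma1 2, Ms4a2 1 and this Gata2 window 22. Over 32851 RefSeq windows of this length the median was 6, with quartiles of 2 and 16. The 10 members have 13 windows, since Gata2, Il1rl1 and Il4 have 2 starts each, and 8 of the 13 held 2 CG or fewer. The second window of Gata2 holds 24. A GATAA or TTATC match was found in 7 of the 13 windows, belonging to 6 members, against 22.6% of all windows. Ms4a2 holds 3 matches, starting 224, 37 and 10 bases before the start, Cma1 holds 1 at 194 bases and Fcer1a 1 at 92 bases. Cpa3 holds 1 at 45 bases and Prss34 1 at 30 bases, and Il1rl1 holds 2 in one window (216 and 79 bases) and 1 in the other (103 bases). No match was found in the windows of Hdc, Mcpt8, Gata2 or Il4. A match describes letters only, and the 22.6% was taken over all windows without matching their base content to that of the members. The Hdc window lies inside the longer Ensembl gene span, because the annotations place its start differently.

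In GMP, the KO libraries held 0.483 times as much Hdc RNA as the CTRL libraries, and the chymase Cma1 was nearly absent from KO. The other basophil and mast cell genes were lower in KO on average, with a wide spread between the 2 CTRL libraries. Of the 10 members, 1 (Hdc) was called lower and 0 higher at an adjusted p under 0.05 (edgeR quasi-likelihood test, two-sided, Benjamini-Hochberg over 17290 genes). Over all genes, 0.0116% were called lower and 0.0347% in either direction. All 10 fitted log2 fold changes were below 0, with a median of −1.20 against 0.01 for all genes, of which 48.8% were below 0. That of Il4 turned above 0 with limma-voom (0.19), without KO-352 (0.18) and without CTRL-350 (1.35), and that of Gata2 without CTRL-350 (0.32). Without CTRL-350, 8 members were below 0 and the median of all 10 was −0.21, against 0.04 for all genes. Without CTRL-346, all 10 were below 0 and the median was −1.74, against 0.02 for all genes. At an unadjusted p under 0.05, 8 members were lower (all but Gata2 and Il4), against 6.62% of all genes. That number was 8 without KO-179 (against 3.51% of genes), 3 without KO-352 (12.7%) and 4 without KO-178 (2.47%). Without CTRL-350, which leaves a single CTRL library, the log2 fold changes of Hdc and Cma1 were −1.10 and −4.25. Those of Cpa3, Mcpt8, Prss34, Ms4a2, Fcer1a and Il1rl1 then lay between −0.56 (Cpa3) and −0.10 (Fcer1a). Every KO library lay below both CTRL libraries for 3 members (Hdc, Mcpt8 and Cma1), against 15.1% of all genes. In bulk RNA, fewer cells of a type and less RNA per cell cannot be told apart.

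**Figure D1:**
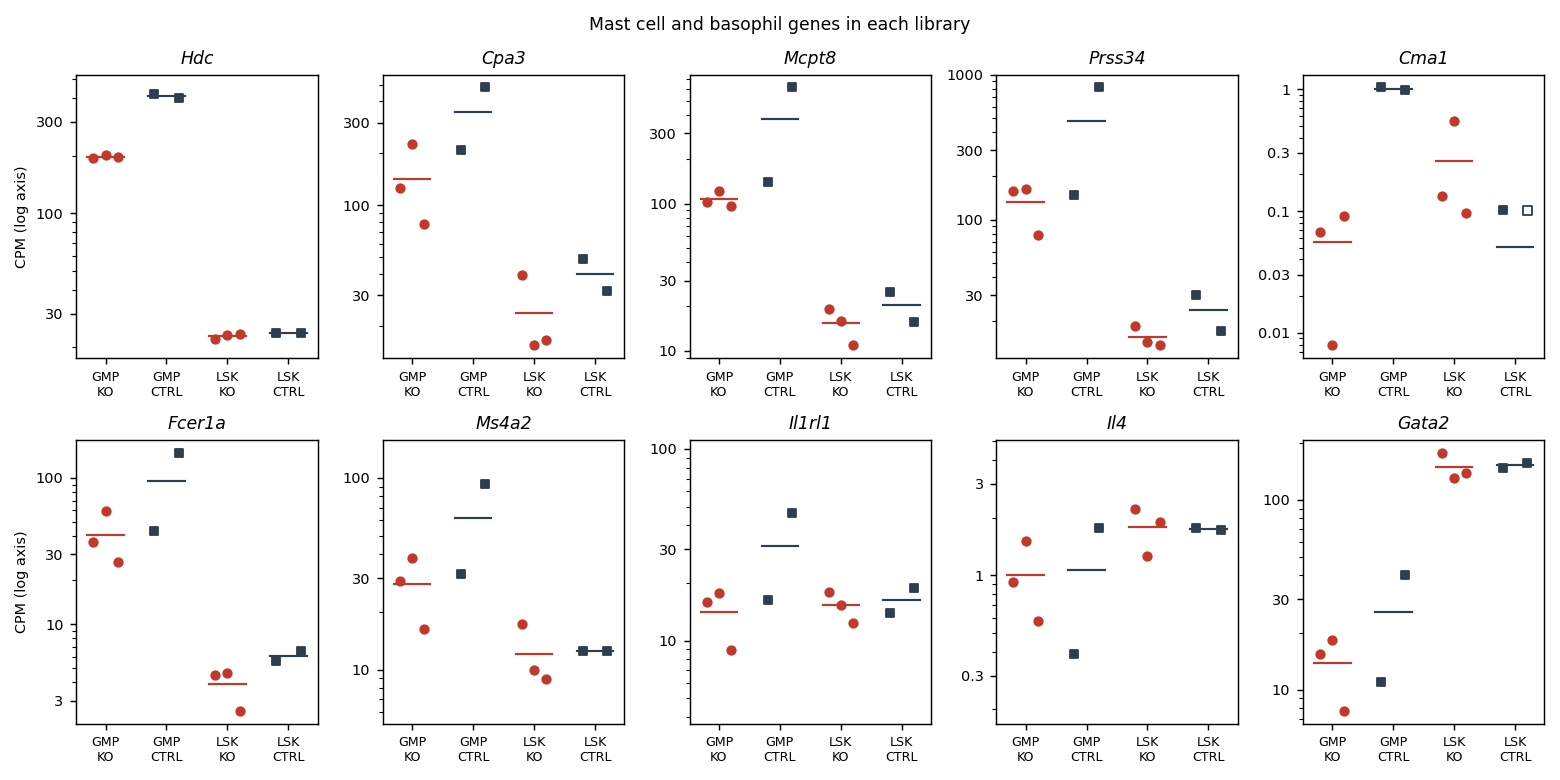
CPM (log axis) of each member in every library, in GMP KO, GMP CTRL, LSK KO and LSK CTRL, with bars at the group means; the open square for Cma1 is LSK CTRL-1330, which had 0 reads and is drawn at the level of 3 reads. In GMP, Hdc lies at 194 to 201 CPM in KO and 399 to 418 CPM in CTRL, and CTRL-350 stands above the other GMP libraries for 8 members.

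Hdc (ENSMUSG00000027360, chromosome 2, 126593667 to 126619299, minus strand, GRCm38) makes histamine from histidine. Its level was 194, 201 and 196 CPM in KO GMP, against 418 and 399 CPM in CTRL GMP. The replicates of each genotype lay close together and the genotypes did not overlap. The means were 197 ± 3.39 CPM in KO and 409 ± 13.5 CPM in CTRL (SD, n = 3 and 2), which is −1.05 ± 0.10 as a log2 fold change (SE; edgeR adjusted p = 0.0414). The log2 fold change lay between −1.10 and −1.02 under 12 alternatives, but the call was lost with limma-voom (adjusted p = 0.0674). It was also lost in edgeR without KO-178 (adjusted p = 0.621), KO-179 (0.166), CTRL-346 (0.289) or CTRL-350 (0.229), each of which leaves fewer libraries.

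The granule proteases fell into different patterns. Cma1, mast cell chymase (chromosome 14, 55941451 to 55944675, minus strand), had 7, 1 and 9 reads in KO GMP, against 96 and 94 reads in CTRL GMP. Every KO library was low and both CTRL libraries were alike, at 0.0553 ± 0.0428 CPM in KO and 1.01 ± 0.0380 CPM in CTRL (SD, n = 3 and 2). The 17 reads in KO against 190 in CTRL give a ratio of 0.0537 (95% exact interval 0.0306 to 0.0883, counting error only), or 18.6-fold lower in KO. The fitted log2 fold change of −4.20 ± 0.75 was not called by edgeR (adjusted p = 0.240) and was called by DESeq2 (adjusted p = 2.26e-05). DESeq2 called 1.67% of genes lower. Reads that align to several places were not counted, so the level of this protease, which has close relatives in the same locus, is uncertain.

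Mcpt8 (chromosome 14, 56082166 to 56085273, minus strand) is a protease of basophils. It stood at 102, 122 and 96.6 CPM in KO GMP, against 141 and 614 CPM in CTRL GMP. All KO libraries were below both CTRL libraries, but the lower CTRL library was nearer to them than to the other CTRL library. The log2 fold change was −1.82 ± 0.51 (edgeR adjusted p = 0.300), and −0.41 without CTRL-350. Without CTRL-346 it was −2.52 and was called (edgeR adjusted p = 0.0291).

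Prss34, a basophil tryptase (chromosome 17, 25298394 to 25300165, plus strand), was at 158, 162 and 78.4 CPM in KO GMP, against 149 and 815 CPM in CTRL GMP. Cpa3, a carboxypeptidase stored in the granules of both lineages (chromosome 3, 20215620 to 20242181, minus strand), was at 125, 225 and 77.8 CPM in the same KO libraries, against 208 and 482 CPM in the same CTRL libraries. For both genes the groups overlapped, with CTRL-350 highest and KO-352 lowest. The log2 fold change was −1.86 ± 0.64 for Prss34 (edgeR adjusted p = 0.326) and −1.27 ± 0.48 for Cpa3 (0.341). Without CTRL-350 these were −0.18 and −0.56, and without CTRL-346 they were −2.62 and −1.76.

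The receptors showed that same order of libraries. Fcer1a, the IgE-binding chain (chromosome 1, 173221284 to 173227214, minus strand), was at 36.4, 59.0 and 26.4 CPM in KO GMP, against 43.0 and 149 CPM in CTRL GMP. Ms4a2, the beta chain (chromosome 19, 11615523 to 11623719, minus strand), was at 29.1, 38.2 and 16.3 CPM in KO, against 31.6 and 92.6 CPM in CTRL. Il1rl1, the receptor for interleukin 33 (chromosome 1, 40429570 to 40465415, plus strand), was at 15.9, 17.7 and 8.89 CPM in KO, against 16.3 and 46.3 CPM in CTRL. In each case CTRL-350 was high, KO-352 was low, and CTRL-346 lay among the KO libraries. The log2 fold changes were −1.24 ± 0.52, −1.15 ± 0.48 and −1.14 ± 0.45 (edgeR adjusted p = 0.361, 0.361 and 0.348). Without CTRL-350 they were −0.10, −0.19 and −0.22, and without CTRL-346 −1.87, −1.73 and −1.71.

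Gata2, a zinc-finger transcription factor of stem cells, mast cells and basophils (chromosome 6, 88193891 to 88207032, plus strand), was at 15.5, 18.3 and 7.73 CPM in KO GMP, against 11.0 and 40.4 CPM in CTRL GMP. The cytokine Il4 (chromosome 11, 53602982 to 53618669, minus strand) was at 0.918, 1.50 and 0.576 CPM in KO, against 0.388 and 1.75 CPM in CTRL. The 2 CTRL libraries enclosed the KO libraries for Il4, and for Gata2 CTRL-346 lay between KO-352 and KO-178. The log2 fold changes were −0.89 ± 0.55 for Gata2 and −0.10 ± 0.68 for Il4 (edgeR adjusted p = 0.486 and 0.962).

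The 2 CTRL libraries of GMP thus differed from each other for 8 members. CTRL-350 over CTRL-346 was 2.31 for Cpa3 and 5.48 for Prss34, the ends of the range for these 8, against a median of 0.977 over 16951 genes, of which 12.2% exceeded 2. The ratio was 0.954 for Hdc and 0.948 for Cma1. CTRL-350 was the highest GMP library for 8 members (16.9% of genes) and KO-352 the lowest for 7 (15.2% of genes). Summed over the 10 members, the KO libraries held 678, 845 and 509 CPM, against 1020 CPM in CTRL-346 and 2641 CPM in CTRL-350.

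**Figure D2:**
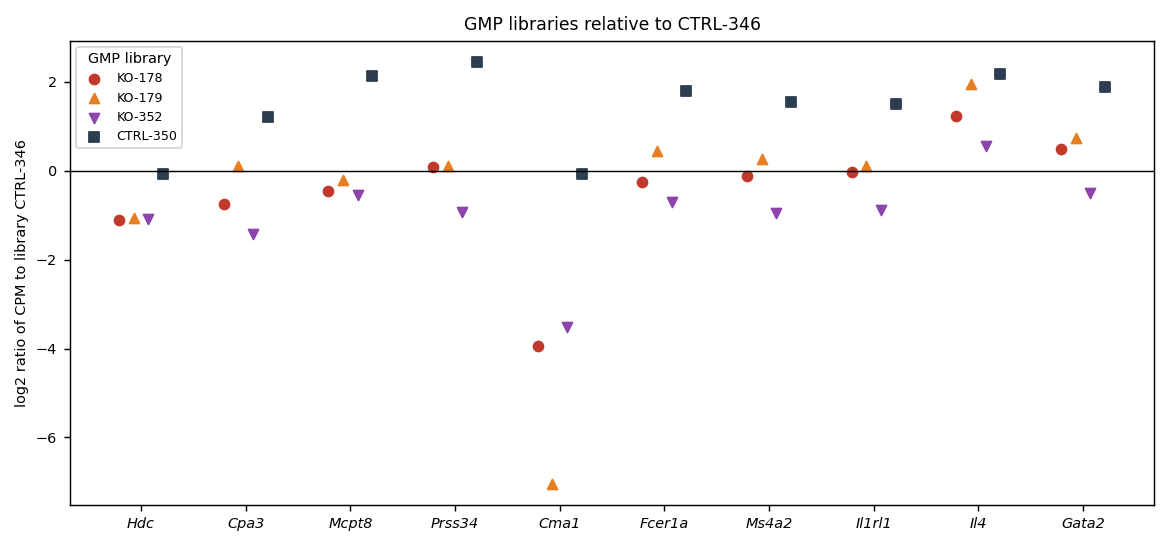
Log2 ratio of the CPM of each member in GMP libraries KO-178, KO-179, KO-352 and CTRL-350 to its CPM in CTRL-346 (line at 0), 1 point per library. Hdc and Cma1 are low in the 3 KO libraries and near 0 in CTRL-350, whereas for the other 8 members CTRL-350 lies above every other library; the KO-179 point of Cma1 rests on 1 read.

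The share of reads outside genes also varied among GMP libraries and was compared within its 2 levels. In the libraries of higher share, the mean of KO-178 and KO-179 over CTRL-350 was −1.01 on the log2 scale for Hdc, −2.45 for Mcpt8 and −1.46 for Cpa3. In those of lower share, KO-352 over CTRL-346 was −1.09 for Hdc, −0.54 for Mcpt8 and −1.42 for Cpa3. Of the 10 members 9 were below 0 in both, all but Il4 (−0.54 and 0.57), against 34.1% of genes. Most of these signs follow from the order of libraries given above, with CTRL-350 highest for 8 members and KO-352 lowest for 7. The comparison within levels therefore adds little to that order. Each comparison rests on a single CTRL library and the members share the same libraries, so they are not independent observations. With this share as a term in the edgeR fit, which leaves 2 residual degrees of freedom, 8 members were called lower (all but Mcpt8, adjusted p = 0.0502, and Il4, 0.450), against 0.763% of genes. In that fit the log2 fold change was −1.63 ± 0.14 for Ms4a2 (adjusted p = 0.00631), −1.57 ± 0.15 for Il1rl1 (0.0105) and −1.38 ± 0.18 for Gata2 (0.0197). The part of this share in the result was not tested beyond these fits.

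**Figure D3:**
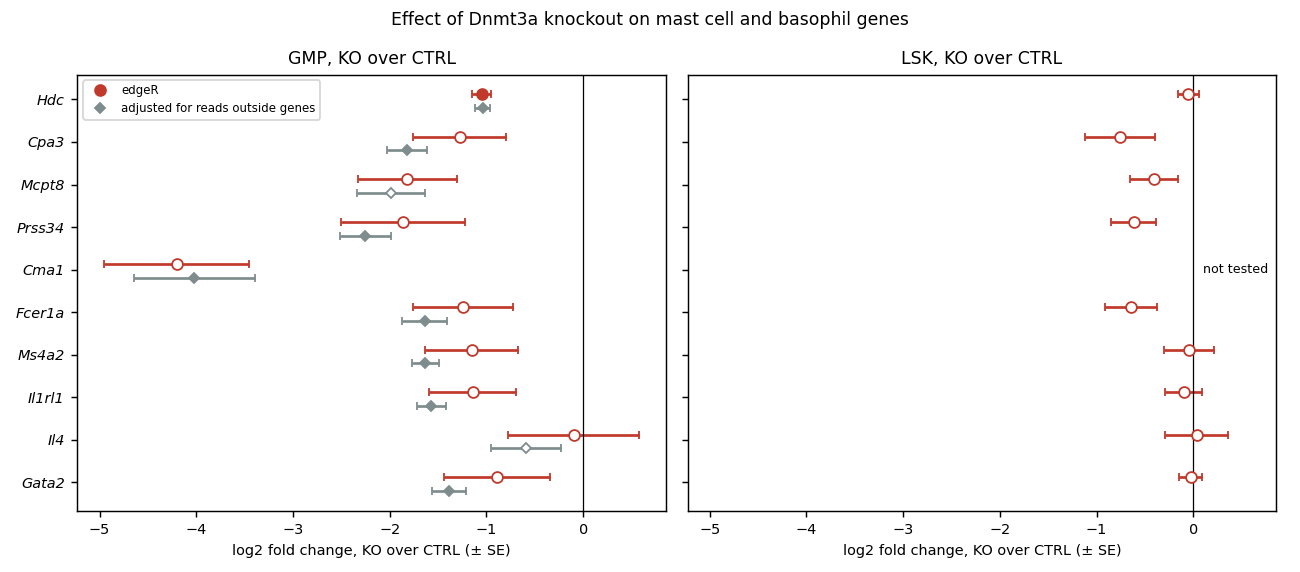
Log2 fold change of each member, KO over CTRL, with its SE, in GMP (left) and LSK (right); circles are the edgeR fits, diamonds the GMP fit adjusted for the share of reads outside genes, and filled symbols have an adjusted p under 0.05. In GMP 1 circle (Hdc) and 8 diamonds are filled; in LSK no symbol is filled, and Cma1 was too low to be tested.

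Other genes of the mast cell and basophil programme did not pass the test in GMP. Of 10 further granule proteases 2 were tested. Gzmb, granzyme B, which lies 173.6 kb from Mcpt8 in the chromosome 14 protease locus, stood at 0.708, 1.38 and 1.77 CPM in KO GMP, against 4.33 and 12.2 CPM in CTRL GMP (log2 fold change −2.68 ± 0.53, edgeR adjusted p = 0.258). All KO libraries were below both CTRL libraries, as for 15.1% of all genes. Ctsg, cathepsin G of neutrophil granules in the same locus, had a log2 fold change of −0.02 ± 0.13 (edgeR adjusted p = 0.962). Mcpt1, Mcpt2 and Mcpt9, proteases of mucosal or uterine mast cells, had 0 reads in all 10 libraries. The connective tissue proteases Mcpt4 and Tpsb2 had at most 4 and 5 reads in any library, and Tpsab1 at most 1.

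The remaining lists likewise held 0 calls in GMP by edgeR. Of 13 transcription factors 11 were below 0, with a median log2 fold change of −0.24; Hes1, a Notch target, had 2, 7 and 2 reads in KO GMP, against 19 and 34 reads in CTRL GMP (log2 fold change −3.07 ± 0.72, edgeR adjusted p = 0.264). Cebpa, a factor of granulocyte and macrophage commitment, had a log2 fold change of −0.30 ± 0.10 (0.326). Of 8 genes tested for mediator synthesis and storage 6 were below 0 (median −0.13), with −1.11 ± 0.49 for Alox5, the 5-lipoxygenase of leukotriene synthesis (0.377), and −0.14 ± 0.10 for its partner Alox5ap (0.522). Of 10 genes of IgE receptor signalling 5 were below 0 (median 0.01), with 0.64 ± 0.21 for the adaptor Gab2 (0.317) and −0.17 ± 0.10 for the kinase Syk (0.467).

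Surface receptors gave 4 of 13 below 0 and a median log2 fold change of 0.20. Il18rap, a chain of the interleukin 18 receptor, was at 110.3, 106 and 61.0 CPM in KO GMP, against 39.2 and 48.9 CPM in CTRL GMP (log2 fold change 1.07 ± 0.27, edgeR adjusted p = 0.271). Il3ra, the alpha chain of the receptor for interleukin 3, a growth factor of basophils, was at 5.36, 3.93 and 7.78 CPM in KO, against 10.8 and 11.4 CPM in CTRL (−0.97 ± 0.29, 0.306). For Il3ra every KO library was below both CTRL libraries, as for 15.1% of all genes. Of 8 cytokines and chemokines 4 were tested, 2 in each direction, with 1.74 ± 0.88 for Ccl3 (0.415) and −1.29 ± 0.88 for Tnf (0.521).

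Markers of other cells were read beside these genes. The 10 eosinophil markers summed to 309, 429 and 493 CPM in KO GMP, against 615 and 1595 CPM in CTRL GMP, with none of the 10 at 0 in any GMP library. Of the 9 tested, 9 had a log2 fold change below 0 (median −1.75) and 0 were called by edgeR. Prg2, the eosinophil major basic protein, averaged 318 ± 69.5 CPM in KO and 836 ± 578 CPM in CTRL, and Epx, eosinophil peroxidase, 26.9 ± 22.5 CPM in KO and 128 ± 66.9 CPM in CTRL (SD, n = 3 and 2). T and NK cell markers summed to 250.1 to 316 CPM in KO and 366 to 451 CPM in CTRL, a sum carried by Nkg7, a granule protein of killer cells, at 282 ± 38.5 CPM in KO and 407 ± 60.8 CPM in CTRL. Of the 8 tested in that list 5 were nevertheless above 0 (median log2 fold change 0.86). Klrb1c, next to Nkg7 in abundance, averaged 3.28 ± 2.48 CPM in KO and 0.206 ± 0.0478 CPM in CTRL. Erythroid markers summed to 426 to 539 CPM in KO and 546 to 740 CPM in CTRL, carried by the transferrin receptor gene Tfrc at 428 ± 84.5 CPM in KO and 608 ± 151 CPM in CTRL, while 5 of the 9 tested were above 0 (median 0.11). B cell markers summed to 80.7 to 134 CPM in KO and 136 to 158 CPM in CTRL, with 7 of the 9 tested below 0 (median −0.78). In each of these 3 lists 0 were called by edgeR. Neutrophil markers ranged over 593 to 4413 CPM in KO and 949 to 2263 CPM in CTRL, and 10 of 10 had a log2 fold change above 0 (median 0.93, 0 called by edgeR). LSK markers ranged over 105 to 202 CPM in KO GMP and 45.9 to 57.1 CPM in CTRL GMP, with Flt3, a receptor of multipotent progenitors, at 105 ± 44.7 CPM in KO and 17.0 ± 4.62 CPM in CTRL. Of the 8 LSK markers 7 were above 0 (median 0.62), with 0 called by edgeR. The markers of GMP themselves summed to 12904 to 18150 CPM in KO GMP and 16649 to 22092 CPM in CTRL GMP. Of these 8 GMP markers 8 were below 0 (median −0.28), with 0 called by edgeR. Macrophage markers summed to 132 to 207 CPM in KO and 136 to 148 CPM in CTRL, with 7 of 8 above 0 (median 1.17, 0 called by edgeR). Megakaryocyte markers summed to 34.2 to 101 CPM in KO and 52.2 to 105 CPM in CTRL, with 6 of 8 above 0 (median 0.84, 0 called by edgeR), although Itga2b, the gene that holds most of that sum, averaged 57.7 ± 29.6 CPM in KO and 73.4 ± 34.7 CPM in CTRL. Their part in the result was not tested.

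In LSK cells no member differed between genotypes by the test, and Hdc was nearly the same in all 5 libraries. Of the 9 members tested (Cma1 failed the filter on low counts) 0 were called by edgeR (adjusted p = 0.9998 for each) or by DESeq2, against 0.0232% of genes by edgeR and 0.0802% by DESeq2 in either direction. At an unadjusted p under 0.05, 2 were lower, Prss34 and Fcer1a, against 1.72% of genes. Of the 9, 8 had a log2 fold change below 0, with a median of −0.10 against 0.00 for all genes. With single libraries left out, the median ranged over −0.40 (without KO-1327) to −0.047 (without CTRL-1330). With single KO libraries left out, the number lower at an edgeR unadjusted p under 0.05 ranged over 0 to 4. It was 0 without KO-1334, against 1.31% of genes, and 4 without KO-1327, against 2.94% of genes. The signs of Ms4a2 (−0.04), Gata2 (−0.03), Il1rl1 (−0.10) and Il4 (0.03) turned when single libraries were left out.

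Hdc was at 22.2, 23.1 and 23.6 CPM in KO LSK, against 23.7 and 23.9 CPM in CTRL LSK (log2 fold change −0.05 ± 0.11). Every KO library lay below both CTRL libraries for Hdc and Fcer1a, 2 of the 9, against 7.26% of genes. Fcer1a was at 4.48, 4.61 and 2.55 CPM in the KO libraries, against 5.55 and 6.57 CPM in CTRL (−0.64 ± 0.27, unadjusted p = 0.0395, edgeR adjusted p = 0.9998). Its partner chain Ms4a2 was at 17.3, 9.98 and 8.89 CPM in KO, against 12.4 and 12.4 CPM in CTRL. The KO libraries lay on both sides of CTRL for Ms4a2.

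Cpa3 was at 39.4, 15.4 and 16.6 CPM in KO LSK, against 48.6 and 31.8 CPM in CTRL LSK (log2 fold change −0.75 ± 0.36). Prss34 was at 18.4, 14.3 and 13.6 CPM in KO, against 30.4 and 17.0 CPM in CTRL (−0.62 ± 0.23), and Mcpt8 at 19.2, 16.0 and 10.9 CPM in KO, against 25.2 and 15.6 CPM in CTRL (−0.41 ± 0.25). For each of these the groups overlapped and the male pair, KO-1327 and CTRL-1326, held the highest values of its genotype. Within sex, 5 of 9 members were below 0 in both sexes (Hdc, Cpa3, Mcpt8, Prss34 and Fcer1a), against 20.8% of genes. Gata2 was at 177, 131 and 139 CPM in KO, against 148 and 157 CPM in CTRL, and Il1rl1 at 18.0, 15.4 and 12.4 CPM in KO, against 13.9 and 18.8 CPM in CTRL. Il4 was at 2.21, 1.26 and 1.91 CPM in KO, against 1.77 and 1.73 CPM in CTRL. Cma1 had 4, 16 and 3 reads in KO, against 3 and 0 reads in CTRL, a ratio of counts of 5.09 (95% exact interval 1.54 to 26.5, counting error only), and most of its KO reads came from KO-1333.

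Of the listed genes named in LSK none was called by edgeR. The smallest p of the surface receptors was that of Itgb7, an integrin chain of mast cell progenitors, at 43.5, 33.7 and 36.5 CPM in KO LSK, against 54.8 and 58.1 CPM in CTRL LSK (log2 fold change −0.58 ± 0.12, edgeR adjusted p = 0.716). Every KO library was below both CTRL libraries, as for 7.26% of all genes in LSK. Fcer1g, the gamma chain of the IgE receptor, was at 11.5, 12.0 and 13.4 CPM in KO, against 16.2 and 16.8 CPM in CTRL (−0.42 ± 0.13, 0.9998). The log2 fold changes of the others were −0.34 ± 0.42 for Gzmb, −0.32 ± 0.19 for Alox5, −0.44 ± 0.24 for Ccl3 and 0.44 ± 0.22 for the transcription factor Cebpb. Eosinophil markers summed to 28.0 to 32.3 CPM in KO and 35.6 to 52.0 CPM in CTRL, and their part in the result was not tested.

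The effect of the knockout on Hdc differed between the populations. In a fit of all 10 libraries the LSK effect minus the GMP effect was 0.98 ± 0.11 on the log2 scale for Hdc (edgeR adjusted p = 0.0145), the 1 member called of 10, against 0.00531% of genes called higher and 0.0265% in either direction. The call was lost without GMP KO-178 (adjusted p = 0.0623), GMP CTRL-346 (0.0548), LSK KO-1333 (0.0695), LSK KO-1334 (0.111), LSK CTRL-1326 (0.156) or LSK CTRL-1330 (0.174), while the value stayed between 0.94 and 1.04. For the other members the difference was above 0 but not called, with 1.39 ± 0.69 for Mcpt8 (0.520) and 1.10 ± 0.65 for Ms4a2 (0.568). It turned below 0 without CTRL-350 for Cpa3, Mcpt8, Prss34, Fcer1a, Gata2 and Il4. Its sign turned under 2 of 13 alternatives for Cpa3 and 3 of 13 for Il4, so not without CTRL-350 alone. The Cma1 difference was not called (0.325) and rests on the few reads given above. DESeq2 called Hdc (adjusted p = 3.85e-08) and Cma1 (0.0126), against 1.3% of genes in either direction.

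Between the populations, LSK cells held less of most members than GMP and more Gata2. In KO libraries, LSK against GMP, 6 members were called lower and 1 higher (edgeR adjusted p under 0.05), where 30.1% of all genes were called lower and 30.7% higher. In CTRL libraries 8 were called lower and 1 higher, where 27.3% and 28.2% of genes were called. Hdc had a log2 fold change of −3.50 ± 0.07 in KO and −4.48 ± 0.10 in CTRL (edgeR adjusted p = 1.35e-09 and 1.97e-09). Gata2 had 3.03 ± 0.44 in KO and 2.18 ± 0.53 in CTRL (edgeR adjusted p = 1.81e-04 and 0.00524). The Gata2 value in CTRL was 3.40 without GMP CTRL-350 and 1.55 without GMP CTRL-346, called in both.

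Fcer1a, LSK over GMP, had a log2 fold change of −3.78 ± 0.48 in KO and −4.37 ± 0.59 in CTRL, and Ms4a2 −1.61 ± 0.42 in KO and −2.71 ± 0.53 in CTRL. The proteases Mcpt8, Prss34 and Cpa3 had −3.20 ± 0.47, −3.50 ± 0.56 and −2.98 ± 0.50 in KO, and −4.59 ± 0.61, −4.73 ± 0.73 and −3.48 ± 0.62 in CTRL. All 5 were called in both genotypes by edgeR, with adjusted p of at most 0.00704. In CTRL the sizes depended on GMP CTRL-350. Without it they were −3.22 for Fcer1a, −1.74 for Ms4a2, −3.18 for Mcpt8, −3.05 for Prss34 and −2.77 for Cpa3, all 5 still called (edgeR adjusted p of at most 0.00892). Without GMP CTRL-346 they were −4.98 for Fcer1a, −5.28 for Mcpt8 and −5.48 for Prss34. Il1rl1 was not called in KO (−0.29 ± 0.36, edgeR adjusted p = 0.504) and was called in CTRL (−1.32 ± 0.45, 0.0280), where the call was lost without GMP CTRL-350 (0.383), LSK CTRL-1326 (0.145) or LSK CTRL-1330 (0.0687). Il4 was not called in either (0.490 in KO and 0.694 in CTRL), but in CTRL it was called higher in LSK without GMP CTRL-350 (1.78, edgeR adjusted p = 0.0385). Cma1 had 23 reads in LSK KO against 17 in GMP KO, a ratio of 4.86 after scaling (95% exact interval 2.48 to 9.69, counting error only; edgeR adjusted p = 0.105), and 3 reads in LSK CTRL against 190 in GMP CTRL, a ratio of 0.0513 (0.0105 to 0.152; edgeR adjusted p = 0.00940). The Cma1 call in CTRL was lost without LSK CTRL-1330 (edgeR adjusted p = 0.0670), the library with 0 reads of it. Population goes together with count table, annotation, depth and, in part, sex, and these cannot be told apart.

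**Figure D4:**
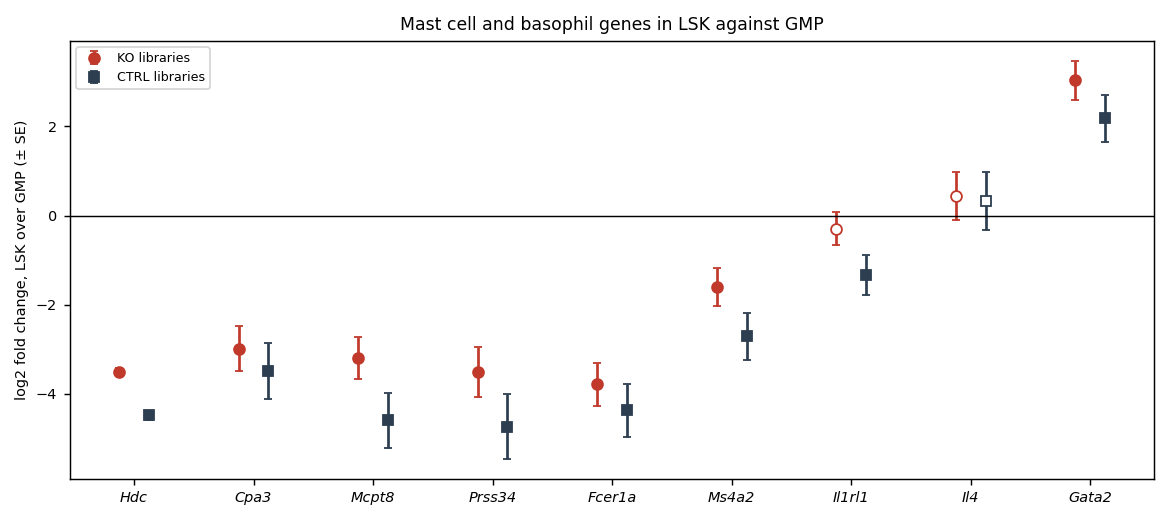
Log2 fold change of 9 members, LSK over GMP, with its SE, in KO (circles) and CTRL libraries (squares); filled symbols have an edgeR adjusted p under 0.05 and Cma1 is left out because it had few reads. Gata2 is higher in LSK in both genotypes, and Hdc, Cpa3, Mcpt8, Prss34, Fcer1a and Ms4a2 are lower in both.

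Compared per kilobase of exon, the members ranked differently in the populations. In GMP the mean level was highest for Prss34 (109 CPM per kb in KO and 395 in CTRL), followed by Mcpt8 (107 and 378), Cpa3 (94.1 and 228), Fcer1a (40.7 and 96.0) and Hdc (30.9 and 63.9). Ms4a2 (9.91 and 22.1), Gata2 (2.56 and 4.76) and Il1rl1 (2.06 and 4.54) came next, and Il4 (0.814 and 0.873) and Cma1 (0.0507 and 0.925) were lowest. In LSK Gata2 was highest (27.7 CPM per kb in KO and 28.2 in CTRL), followed by Cpa3 (15.7 and 26.5), Mcpt8 (15.4 and 20.4) and Prss34 (12.6 and 19.4). Ms4a2 (4.29 and 4.42), Fcer1a (3.89 and 6.07), Hdc (3.59 and 3.72), Il1rl1 (2.21 and 2.37), Il4 (1.46 and 1.43) and Cma1 (0.237 and 0.0469) were lower. Prss34, Mcpt8 and Cpa3 were neighbours in both populations. Between neighbouring ranks among them, the spread between libraries of the more variable gene was wider than the gap, but not always that of the other gene. The same held for Gata2 and Il1rl1 in GMP. Between Fcer1a and Hdc in GMP, the spread of Fcer1a was wider than the gap and that of Hdc was narrower.

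The genes outside the set whose profiles lay nearest to the members over the 10 libraries were Alox5, Gm11697, Itga1, Cdh1 and Rnase12, out of 12038 genes with a mean of at least 1 CPM in GMP. Nearness is the root mean square difference on the log2 scale from the median centred profile of 9 members (Cma1 was too low), and was 0.25 for Alox5, 0.32 for Gm11697, 0.34 for Itga1, 0.36 for Cdh1 and 0.38 for Rnase12. Among the members it was 0.28 for Cpa3 and 2.81 for Gata2, the nearest and the farthest. Alox5 was at 27.6, 35.6 and 14.1 CPM in KO GMP, against 28.6 and 82.4 CPM in CTRL GMP. CTRL-350 was high and KO-352 low, as for the IgE receptor chains. Itga1, an integrin chain that binds collagen, averaged 31.7 ± 8.06 CPM in KO GMP and 48.8 ± 25.3 CPM in CTRL GMP, and Cdh1, E-cadherin, 9.36 ± 3.09 CPM in KO GMP and 19.9 ± 18.2 CPM in CTRL GMP (SD, n = 3 and 2).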

How the data were processed

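RNA-seq of total RNA was measured in 10 sorted samples, 5 of GMP and 5 of LSK (3 KO and 2 CTRL each), grouped by their titles. The description of GMP KO-352 refers to LSK data, and its title was followed. Nothing in the labels says that libraries are separate animals, so p-values measure only their spread, which may be technical. Libraries were made with a stranded kit that removes ribosomal RNA, per the labels' protocols.

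The authors deposited raw counts of reads per Ensembl gene, on mm10 (GRCm38). The submitters' processing notes name HTSeq 0.5.3p3, STAR, DESeq2 1.4.5 and DESeq 1.18.0, without roles or order. The sources used here do not give the strand setting of the counting. Cpa3 and Mcpt8 each hold a miRNA gene on the same strand. The tables hold 38924 (GMP) and 45513 (LSK) gene IDs, of which 37607 and 44585 were matched to a symbol. The deposited normalized signal equals counts over a size factor (within 0.1% in at least 99.9% of genes of a library) and gave those factors as an alternative scaling. Lines of totals in the GMP table, which name no gene, entered neither library sizes nor tests. Reads outside genes made 8.50% to 16.1% of the reads listed. Multiply aligned reads were not counted.

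The tests used edgeR 4.0.16 (R 4.3.3; filterByExpr with a minimum count of 10, TMM, glmQLFit, glmQLFTest, two-sided, Benjamini-Hochberg over all genes tested, threshold 0.05), per population (3 residual degrees of freedom) and, for the difference of effects and for LSK against GMP, over all 10 libraries (6). DESeq2 1.42.0, limma-voom (limma 3.58.1), other size factors, no filter, left-out libraries, the share of reads outside genes and sex were alternatives. SE is the fitted log2 fold change over the square root of its F statistic. CPM uses TMM library sizes of the population, and exon length is the union of exons in GENCODE. Intervals at 95% cover counting error only: without molecular identifiers, reads are not independent molecules. Promoter sequences are from RefSeq (GRCm38.p6). No 2 libraries agreed within sampling noise. The edgeR fits were tested on simulated counts.

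Members, lists and the rule for named genes were chosen with earlier results of these data known. The rule takes all 10 members, Dnmt3a, up to 2 genes of each list with the smallest p in GMP and 1 in LSK, every gene called, the 5 nearest profiles and the 2 most abundant markers of each cell type, not all of which are described. The genes of the granule protease list named at or near 0 reads were chosen after their values were seen.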

Additional observations from a re-analysis of the deposited data

Results flagged for a closer look

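Hdc, histidine decarboxylase, was the member for which the effect of the knockout differed between populations by the test of the difference itself. The LSK effect minus the GMP effect was 0.98 ± 0.11 on the log2 scale (edgeR adjusted p = 0.0145), where 5 of 18836 genes were called. Its level was 22.9 ± 0.704 CPM in KO LSK and 23.8 ± 0.102 CPM in CTRL LSK, and 197 ± 3.39 CPM in KO GMP and 409 ± 13.5 CPM in CTRL GMP (SD, n = 3 and 2). The GMP and LSK tables were counted on different annotations and differ in depth, and each effect is a contrast within 1 table.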

How the results depend on the processing

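No paired analysis was possible because no number in the titles is shared between groups. The count of members called in GMP, 1, was 2 with DESeq2 and with no filter, 0 with limma-voom, 8 when adjusted for the share of reads outside genes, and 0 to 1 when single libraries were left out. The count for the difference of effects, 1, was 2 with DESeq2 and 0 to 2 when libraries were left out. In LSK it stayed at 0 under every alternative run. For LSK against GMP it stayed at 7 in KO and ranged over 7 to 9 in CTRL when libraries were left out.

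Signs turned for members that were not called. In GMP the log2 fold change of Il4 was 0.19 with limma-voom. With single libraries left out it ranged over −0.81 to 1.35 for Il4 and −1.54 to 0.32 for Gata2 in GMP. In LSK it ranged over −0.14 to 0.23 for Il4, −0.40 to 0.14 for Ms4a2, −0.17 to 0.060 for Gata2 and −0.30 to 0.13 for Il1rl1. For the difference of effects it ranged over −0.20 to 1.0015 for Cpa3, −0.0089 to 2.09 for Mcpt8, −0.44 to 1.99 for Prss34, −0.56 to 1.21 for Fcer1a, −0.36 to 1.50 for Gata2 and −1.32 to 0.83 for Il4, the low end being the value without CTRL-350. For Il4 in LSK against GMP among CTRL it ranged over −0.37 to 1.78.

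Over all genes, edgeR called 6 in GMP, DESeq2 719, edgeR without a filter 50, limma-voom 0, the fit adjusted for reads outside genes 203 and the fit of all 10 libraries 182; without KO-352 it was 172. In LSK the counts were 4, 21 with DESeq2, 27 without a filter and 0 in the fit of all 10 libraries, and for the difference 5, 218 with DESeq2 and 38 without a filter. Causes were not tested. With 2 CTRL libraries, which differed from each other for 8 members, precision in GMP is limited by the spread between libraries. For Cma1 and Il4 it is also limited by few reads.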
